A study of Mus musculus with 2 samples.

Results

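The proteasome and immunoproteasome genes of adipose tissue macrophages (ATM) were compared between WT mice and mice with a myeloid-specific Hif-1α KO. Members were the genes named Psma, Psmb, Psmc, Psmd, Psme, Psmf or Psmg followed by a number, with Adrm1 and Pomp added, and pseudogenes left out. The rule found 50 genes of the 20330 gene identifiers in the table. A gene was compared where its FPKM (fragments scaled by transcript length and by the mapped fragments of the library) was at least 1 in at least 1 library, which 49 members and 10297 genes in all passed. The member left out, Psma8, which encodes an alpha subunit found mainly in the testis, was listed at 0 in both libraries. The change of a gene is the difference of log2(FPKM + 1), KO minus WT, and a gene is called higher or lower where this reached 3-fold.

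The study sorted F4/80 and CD11b positive cells from visceral adipose tissue of C57BL/6 mice after 12 weeks of high-fat diet (HFD), and sequenced poly(A) RNA. The WT library came from hMRP8cre-;Hif-1αfl/fl;ApoE-/- mice and the KO library from hMRP8cre+;Hif-1αfl/fl;ApoE-/- mice, so both genotypes lacked ApoE and carried the floxed Hif-1α alleles, and the KO differed by Cre recombinase under the human MRP8 promoter, which is active in myeloid cells and most strongly in neutrophils. Mice in this work were put on the diet at 4 weeks of age, and whether a library pooled animals is not given in the sources used here. There was 1 library per genotype, so no replicate error could be measured, no test was run, and every difference described is one between 2 libraries.

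The proteasome degrades proteins that carry chains of ubiquitin. Its 20S core is a barrel of outer alpha rings, which gate the entry, around inner beta rings, which hold the cutting sites, and a 19S cap binds ubiquitin, unfolds the substrate with a ring of ATPases and feeds it into the core. Immune cells and cells exposed to interferon replace the standard catalytic subunits with Psmb8, Psmb9 and Psmb10 and cap the core with the PA28 activator of Psme1 and Psme2, which alters the peptides made for MHC class I, and macrophages are among the cells that make this form. The proteasome also degrades the HIF-1α protein in oxygenated cells.

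Of the 3 pairs of a standard catalytic gene and its immune replacement, the pair whose changes stood furthest apart was Psmb6 (ENSMUSG00000018286), the standard subunit with caspase-like activity, and Psmb9 (ENSMUSG00000096727). Their promoter sequences are shown because the 2 libraries differed in opposite directions for these genes. Those of Psmb5 (ENSMUSG00000022193) and Psmb8 (ENSMUSG00000024338), the standard and immune chymotrypsin-like subunits, are shown because both changes were below 0, though Psmb8 lay within 3-fold. Each sequence is the 250 bases before the gene start in RefSeq on GRCm38.p6, read 5′ to 3′ on the gene's strand, with capitals at matches to the motifs described next. Psmb6 lies at chr11:70525107-70525356 on the plus strand, Psmb9 at chr17:34187331-34187580 on the minus strand, Psmb5 at chr14:54617996-54618245 on the minus strand and Psmb8 at chr17:34197945-34198194 on the plus strand.
Psmb6: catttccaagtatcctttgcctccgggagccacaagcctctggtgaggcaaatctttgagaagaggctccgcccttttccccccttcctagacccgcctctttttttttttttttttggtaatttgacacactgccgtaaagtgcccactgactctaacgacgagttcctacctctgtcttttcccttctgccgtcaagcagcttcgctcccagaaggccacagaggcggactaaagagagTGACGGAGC
Psmb9: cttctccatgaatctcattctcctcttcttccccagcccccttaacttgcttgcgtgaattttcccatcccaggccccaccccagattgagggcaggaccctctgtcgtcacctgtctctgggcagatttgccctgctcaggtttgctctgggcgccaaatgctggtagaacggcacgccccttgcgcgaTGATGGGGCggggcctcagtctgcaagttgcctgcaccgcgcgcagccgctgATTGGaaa
Psmb5: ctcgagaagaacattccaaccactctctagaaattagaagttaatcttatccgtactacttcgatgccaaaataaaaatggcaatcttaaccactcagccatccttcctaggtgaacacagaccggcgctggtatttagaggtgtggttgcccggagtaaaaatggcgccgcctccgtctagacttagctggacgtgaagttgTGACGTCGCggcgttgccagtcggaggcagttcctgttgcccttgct
Psmb8: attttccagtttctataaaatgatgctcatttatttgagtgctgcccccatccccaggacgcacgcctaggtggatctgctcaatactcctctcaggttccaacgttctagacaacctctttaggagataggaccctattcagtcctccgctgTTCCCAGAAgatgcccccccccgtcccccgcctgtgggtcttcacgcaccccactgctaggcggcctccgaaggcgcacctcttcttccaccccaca

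The motifs searched on both strands were the core of the interferon-stimulated response element (ISRE, searched as a pair of GAAA blocks with a gap of 2 bases), TTCNNNGAA, a STAT site, TGANNNNGC, the form of antioxidant element that NRF1 and NRF2 bind, and CCAAT, the box bound by NF-Y. A window ran from 250 bases before the gene start to 50 after it. TGANNNNGC began 60 bases before the start of Psmb9, 9 before that of Psmb6 and 47 before that of Psmb5, and a CCAAT box on the opposite strand began 8 bases before that of Psmb9. TTCNNNGAA began 97 bases before the start of Psmb8. Psmb8 also held 1 TGANNNNGC, and Psmb5 1 more, in the bases after the start, which are not printed. No 2 of these matches overlapped. Promoters were matched for 42 member genes, 45 promoters in all, and Psmb7 was not among them. TGANNNNGC was held by 26 of the 45 (57.8%) and by 41.3% of all 32851 promoters, and by all 4 matched promoters of standard beta genes. The ISRE core was held by 5 of the 45 (11.1%), those of Psmb3, Psmd4, Psmd9, Psme1 and Psmg4, and by 3.44% of all promoters. TTCNNNGAA was held by 3 (6.67%, 8.30% of all) and CCAAT by 15 (33.3%, 37.4% of all), of which 5 were among the 8 promoters of alpha ring genes. A match is a description of the letters only.

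Of the 49 compared, 7 were higher in KO, where 13.6% of all genes were, and 9 were lower, where 13.7% of all genes were, so that 16 passed in either direction against 27.3% of all genes. Of the 2815 genes past 3-fold, 2182 had a mean under 10 FPKM, where only 9 of the 49 members lay, so the share over all genes is no measure for members of higher level. The median change of the members was -0.39, with 21 above 0 and 28 below, and that of all genes was 0.03. Their summed level was 2554 FPKM in WT and 1792 in KO, which was 0.436% and 0.315% of all FPKM in the table. Across the 49 members, levels in WT and KO had a Pearson r of 0.63 and a Spearman rho of 0.64 on the log2(FPKM + 1) scale, against 0.75 and 0.71 across all genes compared. Genes are not independent replicates, and both values are descriptions.

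The members were read against genes of like level. The shares of all genes given here also stand beside the counts by role that follow. Between a mean FPKM of 50 and 100 there were 12 members, all 12 below 0, with a median change of -0.80, while 52.0% of all genes in that range were below 0 with a median of -0.02. Among the 12, Psmb4, at -0.008, was just above 0 under both other scalings. In that range 4 members, Psmb2, Psmb5, Pomp and Psmg4, passed 3-fold, all lower in KO, where 4.95% of all genes passed in either direction. Between 100 and 200 FPKM there were 4 members, 2 below 0 (Psmb6 and Psma6) and 2 above (Psmb3 and Psme1), of which 1, Psmb6, passed, against 3.11% of all genes. Members of lower level also went both ways, with 14 of 33 below 0. Between 20 and 50 FPKM, 2 of 19 members were higher and 2 lower (11.7% of all genes in either direction), and between 10 and 20 FPKM 1 of 5 was higher and 1 lower (20.6% of all genes). Under 10 FPKM 4 of 9 members were higher and 1 was lower (41.1% of all genes). These 4, Psmc6, Psmd5, Psmf1 and Psmg3, were under 1 FPKM in WT, and the 3 higher members at 1 FPKM or more in both libraries were Psma2, Psmb9 and Psmc1.

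**Figure D1:**
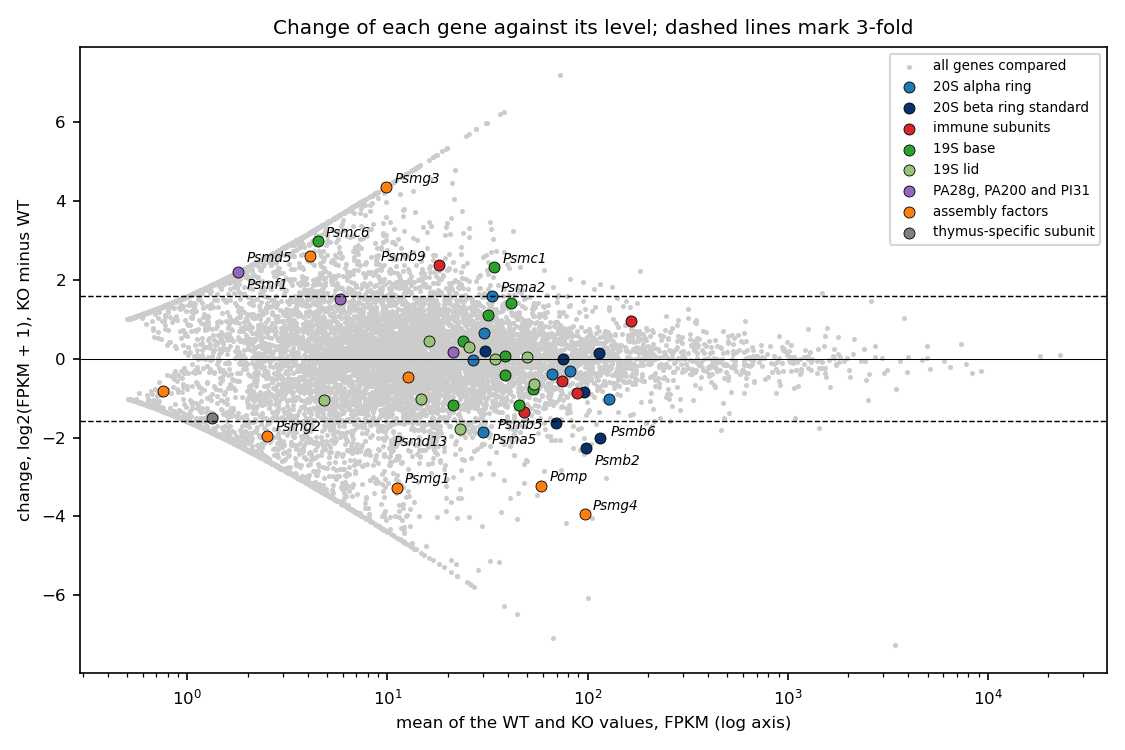
Change of each gene (log2(FPKM + 1), KO minus WT) against the mean of its WT and KO values (FPKM, log axis). Grey points are the 10297 genes compared, coloured points the 49 members by role, and dashed lines mark 3-fold. The 16 members past 3-fold are named, and Psmb2, Psmb5, Psmb6, Pomp and Psmg4 lie below the dashed line where few grey points do.

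The standard beta ring had a lower median change than the alpha ring. Its 7 genes summed to 792 FPKM in WT and 408 in KO, a WT to KO ratio of 1.94, with a median change of -0.83, and 3 of the 7 were past 3-fold, all lower. Of all genes, 4.95% between 50 and 100 FPKM and 3.11% between 100 and 200 FPKM passed in either direction. Psmb6 was 187 FPKM in WT and 45.3 in KO, a change of -2.02. Psmb5 was 105 FPKM in WT and 33.3 in KO (-1.63). The third standard catalytic gene, Psmb7, the trypsin-like subunit, did not share this difference, with 28.5 FPKM in WT and 32.9 in KO (0.20). Psmb7 shares 405 exon bases on the opposite strand with Nek6, at 13.5 and 13.9 FPKM, and the library kit did not mark strand.

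The other 4 genes of the beta ring carry no cutting site and shape the barrel. Psmb2 was 164 FPKM in WT and 33.1 in KO (-2.28), the lowest change of the ring. Psmb1 was 123 and 68.5 FPKM (-0.83). Psmb3, at 108 and 119 FPKM (0.14), and Psmb4, at 75.7 and 75.3 FPKM (-0.01), were at nearly the same level in both libraries. The ring, whose subunits stand in equal numbers in the assembled particle, was thus not lower as a block: 4 genes were at a change of -0.83 or less and 3 lay between -0.01 and 0.20. Among the 7 genes the highest was 6.54 times the lowest in WT and 3.63 times in KO, and the coefficient of variation of the levels was 46.7% and 55.2%.

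The alpha ring differed less. Its 7 compared genes summed to 453 FPKM in WT and 342 in KO, with a median change of -0.30, 1 gene higher and 1 lower. Psma5 was 47.7 FPKM in WT and 12.4 in KO (-1.86), and Psma2 was 16.2 and 50.7 FPKM (1.59), just past 3-fold in the other direction. Psma6, the highest of the ring in both libraries, was 172 and 84.7 FPKM (-1.02). Psma4 (90.4 and 73.1 FPKM, -0.30), Psma7 (75.5 and 57.4 FPKM, -0.39) and Psma3 (27.2 and 26.4 FPKM, -0.04) were closer to level, and Psma1 was 23.4 and 37.6 FPKM (0.66). The order of the ring's genes therefore differed between the libraries, Psma2 being the lowest in WT and Psma5 the lowest in KO. The highest gene was 10.7 times the lowest in WT and 6.81 times in KO.

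**Figure D2:**
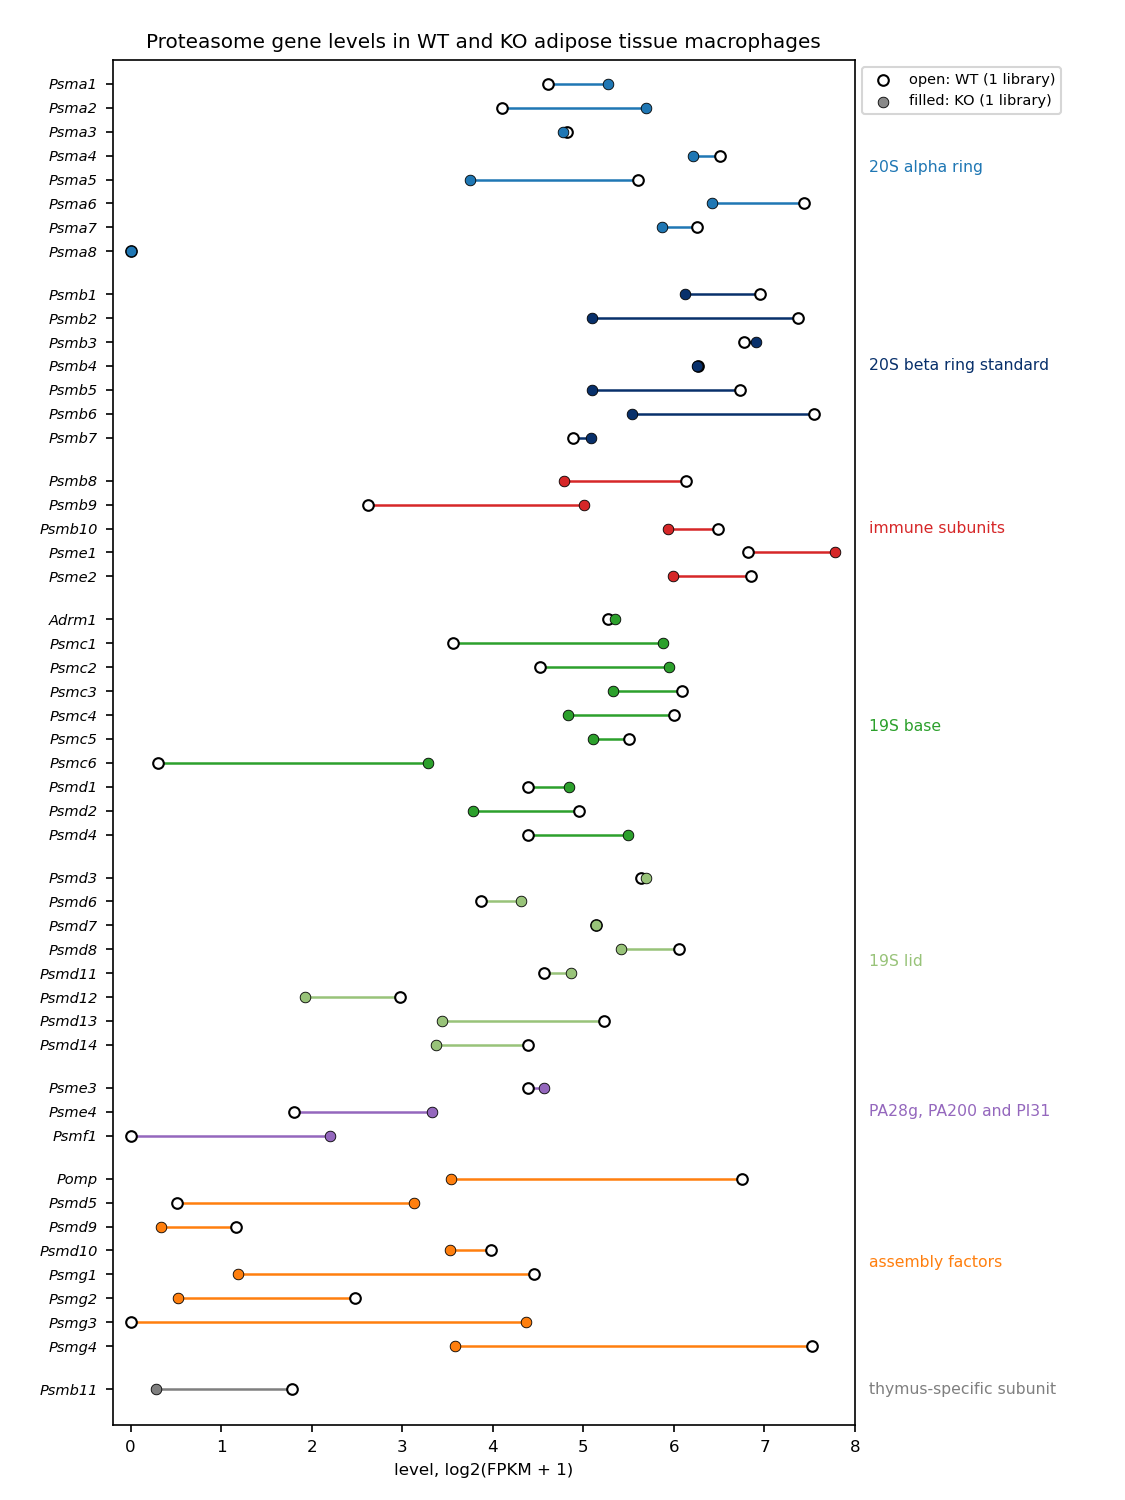
Level of each of the 50 members in WT (open) and KO (filled), as log2(FPKM + 1), with 1 library per genotype and a line joining the values of a gene. Members are ordered by role, and the longest lines are those of the assembly factors, with Psmg3 listed at 0 in WT and Psmg4 at 183 FPKM in WT against 10.9 in KO.

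The immune subunits did not move as a group. Of the 5 genes, 1 was past 3-fold, Psmb9, which was higher in KO, and the median change was -0.56, with 2 above 0 and 3 below. Psmb9 was 5.18 FPKM in WT and 31.0 in KO (2.38), the lowest of the 5 in WT by a wide margin. About 16 fragments stood behind the WT value, which put the KO to WT ratio of 6.00 between 3.58 and 10.9 (95% exact binomial interval, counting error only). Psmb8 was 69.2 and 26.7 FPKM (-1.34). Psmb10, the immune trypsin-like subunit, was 88.8 and 60.0 FPKM (-0.56). The 3 catalytic immune genes respond to interferon-gamma together in many cells. Here only Psmb9 passed 3-fold, while Psmb8 and Psmb10 were below 0 without passing it. Psmb9 shares 212 exon bases on the opposite strand with Tap1, a peptide transporter gene with 31.8 FPKM in WT against 43.9 in KO, and Psmb8 shares 498 with an antisense gene, Gm20496, that was not analysed here.

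Within a library the ratio of an immune gene to the standard gene it replaces does not depend on how the library was scaled. The ratio of Psmb9 to Psmb6 was 0.0277 in WT and 0.686 in KO, 24.7 times higher in KO. The ratio of Psmb8 to Psmb5 was nearly level, 0.657 in WT and 0.802 in KO, since both genes had changes below 0, Psmb8 within 3-fold. The ratio of Psmb10 to Psmb7 went the other way, from 3.11 in WT to 1.82 in KO. Summed over the 3 pairs, immune to standard catalytic genes stood at 163 to 320 FPKM in WT, a ratio of 0.509, and at 118 to 111 FPKM in KO, a ratio of 1.06. This difference rested on the Psmb9 and Psmb6 pair, for without it the ratios were 1.18 in WT and 1.31 in KO.

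The genes of the PA28 activator encode the alternating subunits of 1 ring and differed from each other. Psme1 was 111.5 FPKM in WT and 217.9 in KO (0.96), the highest member in KO. Psme2 was 114.5 and 62.6 FPKM (-0.86). Their ratio was 0.974 in WT, close to equal, and 3.48 in KO. Psme1 shares 14 exon bases with Emc9 on the opposite strand, which had 26.7 FPKM in WT and a listed 0 in KO, and a copy of Psme2, Psme2b, is annotated but is not a row of the table, so that reads shared with it are uncertain.

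**Figure D3:**
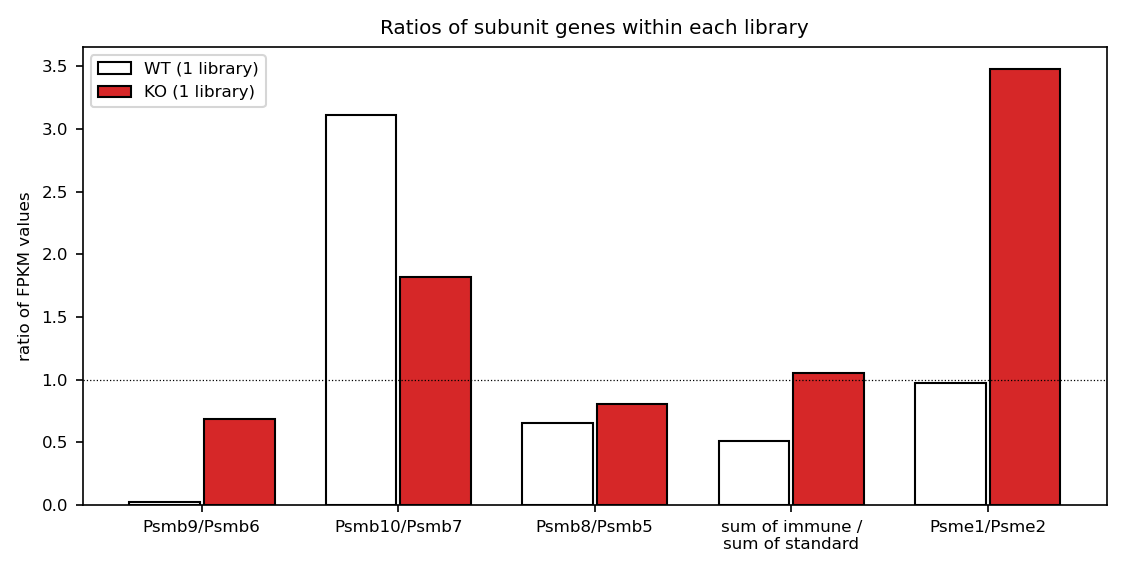
Ratio of FPKM values within each library for the 3 pairs of immune and standard catalytic genes, for their sums and for Psme1 over Psme2, in WT (white bars) and KO (red bars), 1 library each; the dotted line marks a ratio of 1. The sums reach 0.509 in WT and 1.06 in KO, and the Psmb10 to Psmb7 bar is the 1 that is lower in KO.

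Without Sem1, a small lid subunit outside the rule for members, the 19S cap stood near the same sum in both libraries. Sem1 itself was 410 FPKM in WT and 167 in KO. The 18 base and lid genes summed to 564 FPKM in WT and 547 in KO, with a median change of 0.03, 2 genes higher and 1 lower. In mean level per gene, the standard 20S genes stood at 2.84 times the 19S genes in WT and 1.76 times in KO. The alpha ring alone stood at 2.06 and 1.61 times the 19S genes. Among the members, the narrowing came from the 20S side. The 14 standard ring genes summed to 1245 FPKM in WT and 750 in KO, with 1 higher and 4 lower. Sem1 is not in these ratios, and counting it would put the 19S sum further below its WT value in KO. The size of the narrowing thus depends on leaving Sem1 out.

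The base holds the ATPases Psmc1 to Psmc6, which form a single ring in equal numbers, with the scaffolds Psmd1 and Psmd2 and the ubiquitin receptors Psmd4 and Adrm1. Its 10 genes had a median change of 0.26, with 2 higher and 0 lower, of which Psmc6 passed the filter only through its KO value, and without it the median was 0.08. Psmc1 was 10.8 FPKM in WT and 57.7 in KO (2.32). Psmc6 was 0.229 and 8.72 FPKM (2.98), with about 3 fragments in WT, so that its KO to WT ratio of 38.0 had a counting interval of 12.7 to 186. Psmc2 was 22.0 and 60.7 FPKM (1.42). The other 3 ATPase genes were lower in KO without passing 3-fold. Psmc4 was 63.2 and 27.3 FPKM (-1.18), Psmc3 67.3 and 39.2 FPKM (-0.77) and Psmc5 44.3 and 33.4 FPKM (-0.40), so that the ATPase genes divided evenly by direction. Psmc3 shares 215 exon bases with Slc39a13 on the opposite strand, at 15.3 and 11.8 FPKM. The ubiquitin receptor Psmd4 was 19.9 and 43.9 FPKM (1.10), while Adrm1 was 37.7 and 39.8 FPKM (0.08). The scaffolds, Psmd1 at 19.997 and 27.6 FPKM (0.45) and Psmd2 at 29.9 and 12.8 FPKM (-1.17), both lay within 3-fold.

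The lid holds Psmd14, the enzyme that removes ubiquitin chains from the substrate, and a frame of other subunits, 7 of them members here. Sem1, outside the rule for members, is not counted in what follows. Its 8 genes had a median change of -0.32, with 0 higher and 1 lower. Psmd13 was 36.5 FPKM in WT and 9.82 in KO (-1.79), and it shares 342 exon bases with Sirt3, which was listed at 0 in both libraries. Psmd14 was 19.95 and 9.33 FPKM (-1.02), and Psmd7, its partner in the lid, was 34.3 FPKM in both libraries (0.00). Both partners lay within 3-fold. Psmd12 was 6.88 and 2.79 FPKM (-1.05) and Psmd8 65.8 and 41.8 FPKM (-0.64). Psmd3 (48.8 and 50.6 FPKM, 0.05), Psmd11 (22.7 and 28.1 FPKM, 0.30) and Psmd6 (13.6 and 18.8 FPKM, 0.45) were level or somewhat higher in KO. Without Psmd12, the lowest of the lid, the median change was 0.00081.

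Of the other activators and the inhibitor, Psme4 and Psmf1 were of low level. Psme3, the nuclear PA28γ subunit, was 19.9 FPKM in WT and 22.6 in KO (0.17). Psme4, which encodes the PA200 activator, was 2.50 and 9.03 FPKM (1.52), under 3-fold on the log2(FPKM + 1) scale. Psmf1, the PI31 regulator first known as an inhibitor of the core, was listed at 0 in WT and was 3.59 FPKM in KO, and a value of 0 may be an estimate that failed. Psmb11, the subunit of the thymic cortex, was 2.43 and 0.216 FPKM (-1.50), with about 4 fragments in KO, a WT to KO ratio of 11.3 with an interval of 3.86 to 41.9.

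The assembly factors, which build the particle and leave it, held the widest differences of any role. Of the 8 genes, 2 were higher and 4 lower in KO (27.3% of all genes in either direction, and 41.1% of those under 10 FPKM, where Psmd5, Psmd9, Psmg2 and Psmg3 lay), their median change was -1.39, and their summed level was 331 FPKM in WT and 61.4 in KO. The median was -2.50 with a pseudocount of 0.1 in place of 1, and -3.24 over the 4 genes at 1 FPKM or more in both libraries. That set leaves out both higher genes, Psmg3 and Psmd5, which passed the filter only through KO. It also leaves out Psmg2, called lower, and Psmd9, which passed only through WT. Most of the WT sum came from 2 genes. Psmg4, a chaperone of the alpha ring, was 183 FPKM in WT and 10.9 in KO (-3.94), a WT to KO ratio of 16.7 with an interval of 12.2 to 23.5. Pomp, which recruits beta subunits and joins the core's 2 barrel parts, was 107 and 10.6 FPKM (-3.22), a ratio of 10.1 with an interval of 8.34 to 12.2. Psmg4 was after Psmb6 the highest member in WT.

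Psmg3, which works as a pair with Psmg4, went the other way, with a listed 0 in WT against 19.6 FPKM in KO (4.37). It shares 280 exon bases on the same strand with the coding gene Gm26938, which was not analysed here. By its length and the depth of the KO library, the KO value stood for about 118 fragments. The earlier acting pair was low in KO in both genes. Psmg1 was 20.96 and 1.28 FPKM (-3.27), a WT to KO ratio of 16.4 with an interval of 8.20 to 36.1 and about 9 fragments in KO. Psmg2 was 4.56 and 0.438 FPKM (-1.95), a ratio of 10.4 with an interval of 3.61 to 39.6 and about 4 fragments in KO. The ratio of Psmg1 to Psmg2 was 4.60 in WT and 2.92 in KO, where it rests on about 9 and 4 fragments. Psmg3 and Psmg4 exchanged order, through a listed 0 for Psmg3 in WT that may be an estimate that failed. The chaperones of the 19S base were mixed in direction. Psmd5 was 0.424 and 7.74 FPKM (2.62), with about 6 fragments in WT. Psmd10, also called gankyrin, was 14.8 and 10.5 FPKM (-0.45). Psmd9 was 1.24 and 0.262 FPKM (-0.83), with about 5 and 1 fragments, and its WT to KO ratio of 4.75 had an interval of 0.712 to 301, so no difference was detectable at this depth.

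**Figure D4:**
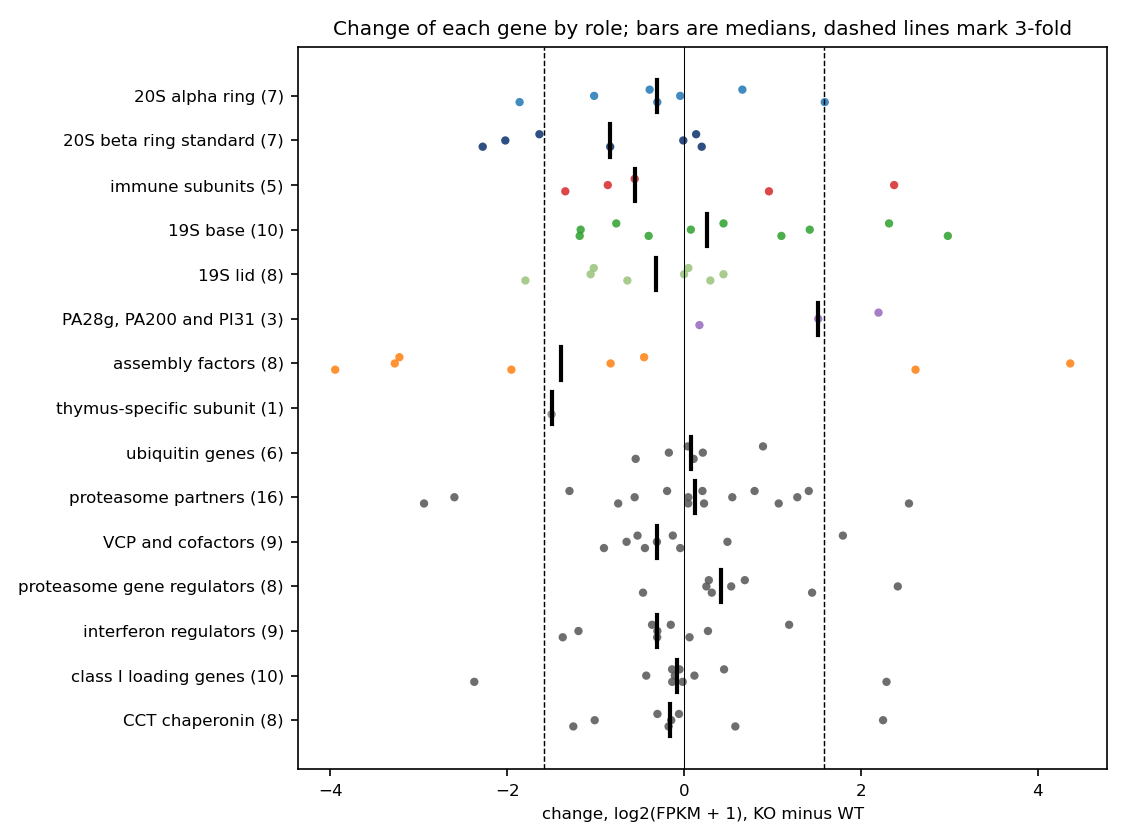
Change of each gene (log2(FPKM + 1), KO minus WT) by role, for the members in colour and for the comparison lists in grey, with the number of genes compared in brackets. Thick bars are medians, dashed lines mark 3-fold and the vertical scatter within a row only separates points; the assembly factors spread from -3.94 to 4.37.

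Genes that act beside the proteasome gave a background of the same pathway. Beside each count below stand the 27.3% of all genes that passed 3-fold in either direction, a share that was smaller at higher levels. Of the 6 ubiquitin genes, 0 passed 3-fold, and their median change was 0.08. Ubb, which encodes a chain of ubiquitin units, was 758 FPKM in WT and 818 in KO, and Rps27a, which yields ubiquitin joined to a ribosomal protein, 785 and 697. Both differed by less than 3-fold. Among 16 partners that dock on the particle or pass substrates to it, 1 was higher, Nub1 at 2.40 and 18.8 FPKM (2.54), and 2 were lower, with a median of 0.13. Akirin2, which brings proteasomes into the nucleus, was 7.93 and 0.165 FPKM (-2.94), and Ube3c, a ubiquitin ligase of the particle, was 5.04 FPKM in WT and listed at 0 in KO. Sem1, a small lid subunit whose name falls outside the rule for members, was 410 and 167 FPKM (-1.29). Of VCP, the segregase that extracts substrates, and its cofactors, 1 of 9 was higher, Ubxn6 at 12.3 and 45.2 FPKM, and 0 were lower, with a median of -0.31 and Vcp itself at 63.3 and 40.0 FPKM. Of the 8 subunits of the CCT chaperonin, another ring machine, 1 was higher, Cct2 at 20.4 and 101 FPKM (2.25), and 0 were lower, with a median of -0.16.

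Of the 8 regulators of these genes 1 passed 3-fold, where 27.3% of all genes did in either direction, the share to set beside each count here. Nfe2l1, the factor NRF1 that raises proteasome genes when the particle is inhibited, was 46.8 FPKM in WT and 57.1 in KO (0.28), and Ddi2, the protease that activates it, was 33.9 and 40.6 (0.25). Nfe2l2, the factor NRF2, was 179 and 223 FPKM (0.31). The 8 regulators had a median change of 0.42, and the 1 past 3-fold was Nfyb, an NF-Y subunit, at 0.332 and 6.11 FPKM (2.42). Nfyb passed the filter only through its KO value. Of 9 interferon regulators, 0 passed 3-fold, with a median of -0.30. Irf1, which drives the immune subunit genes, was 114 and 92.2 FPKM (-0.30), and Jak1, a kinase of the interferon receptors, 64.3 and 67.2 (0.06). Of 10 class I loading genes, which receive the peptides, 1 was higher, Tapbpl at 2.84 and 17.8 FPKM (2.29), and 1 lower, the peptide trimming Erap1 at 18.1 and 2.69 FPKM (-2.37), with a median of -0.08. B2m (6173 and 5960 FPKM) and H2-K1 (895 and 815 FPKM), which form the class I molecule, were nearly level.

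Depth, length and other cells were measured beside these values, and their part in them was not tested. The smallest recurring values put the libraries at about 5870000 fragments in WT and 7470000 in KO, and 890 genes at 0 in WT had 20 or more fragments in KO, while 683 were so in the reverse direction. Length was the median over the annotated coding transcripts of a gene, partial ones included, so it can fall short of the main transcript. By it Psmd2 stood at 659 bases and Psme4 at 657. Members had a median of 1183 bases against 2131 for all genes. The 20 members under 1000 bases by this length had a median change of -0.57 (-0.07 for all genes of that length). Fragment estimates and their intervals rest on the same lengths. Across members, change had a Pearson r of 0.22 with log2 length (n = 49), and across all genes 0.04. Hif1a, read over the whole gene and not the deleted exon, was 30.4 FPKM in WT and 20.97 in KO (-0.52), so it is no check of the deletion, and Apoe, deleted in both genotypes, was still 94.3 and 117 FPKM. Macrophage markers summed to 6126 and 6370 FPKM, 0 of 7 past 3-fold, with Adgre1, the gene of F4/80, at 299 and 239 and Itgam, the gene of CD11b, at 128 in both, while Fcgr1 (49.3 and 21.9) and Mertk (38.0 and 88.1) differed in opposite directions. Neutrophil markers summed to 197 and 570 FPKM, with all 7 compared of 10 above 0, led by S100a9 at 63.4 and 301, and with Camp, Ltf and Mmp8 at 0 in both libraries. Eosinophil markers summed to 6.497 and 33.1 FPKM, with Prg2, Epx and Siglecf at 0. Fibroblast markers summed to 43.1 and 79.5, mesothelial to 0 and 7.84 (Upk3b alone, with Krt19, Lrrn4, Msln and Wt1 at 0), T cell to 23.6 and 29.3 with Cd3d, Cd3e, Cd3g and Lck at 0, B cell to 2.75 and 6.46 (higher in KO through Cd79b, while Cd79a was lower), dendritic cell to 3.45 and 9.54 (higher through Zbtb46, while Xcr1 and Dpp4 were lower), adipocyte to 95.9 and 93.0 with Adipoq and Plin1 at 0, and endothelial to 18.4 and 16.1 FPKM. In sorted bulk RNA, fewer cells of a type and less RNA per cell cannot be told apart.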

How the data were processed

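Per the labels, poly(A) RNA of sorted ATM was fragmented, primed with random hexamers and amplified for 18 cycles. The submitters' processing notes name CASAVA 1.8.2, TopHat2 2.0.9, Cufflinks 2.2.1 and the build mm9, and the authors deposited 1 FPKM value per gene and library, without counts. The table had 20749 rows, of which 401 full repeats were dropped and 18 further rows were summed into their identifier. Symbols were found for 20035 of 20330 identifiers (98.5%), and no member row was repeated.

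The members and gene lists were chosen with earlier results of these data known. Changes were differences of log2(FPKM + 1) over genes at FPKM 1 or more in at least 1 library, and calls were 3-fold (1.58 on the log2 scale). With 1 library per genotype no test was run. Every member could be named; of other lists, genes past 3-fold at FPKM 1 or more in both libraries and the 3 highest by mean FPKM could be, with the targeted and sort marker genes, and of cell type markers those at 0 and the highest of a list. Akirin2, Ube3c, Nfyb, genes sharing exons with a member, and the macrophage, B cell and dendritic cell markers that differed most in a list were named after their values were seen. Lengths, found for 98.4% of genes compared, came from GENCODE M21 on GRCm38, and FPKM times length (median of coding transcripts) gave the value of 1 fragment, 0.170 in WT and 0.134 in KO, and so the fragments behind a value. Intervals of ratios are exact binomial at 95% and cover counting error only. Reads shared with 5 annotated pseudogenes or copies of members are uncertain, as is the strand of reads in shared exons. Alternatives were other pseudocounts, filters, scalings, a threshold of 2-fold and the handling of repeated identifiers. The arithmetic was tested on simulated data. Protein identity of subunit pairs was planned and not analysed here. Python 3.11.15, pandas 2.3.3, numpy 2.4.6, scipy 1.17.1 and matplotlib 3.10.9 were used. Some genes of the lists are not reported here.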

Additional observations from a re-analysis of the deposited data

How the results depend on the processing

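No paired analysis was possible because the design holds 1 library of each genotype, and for the same reason no library could be left out. Members called higher went from 7 to 3 under a filter of FPKM 1 or more in WT and KO alike, and to 4 under a filter of 5 or more on the mean; 42 members had a value under either filter. At 2-fold, members called lower went from 9 to 16 and members called higher from 7 to 10. No share of all genes was computed for any alternative, so the counts of calls in this section cannot be set against a background. The median of the assembly factors, -1.39, was -2.50 and -2.77 with pseudocounts of 0.1 and 0.01, and -3.24 and -3.22 under the first and the second filter. The median of Psme3, Psme4 and Psmf1 was 0.85 under both filters, where Psmf1 had no value. The median of the lid, -0.32, turned to 0.00081 under the filter on the mean, where Psmd12 had no value. Without Psmb9 and Psmb6, left out after seeing the data, the WT ratio of summed immune to standard genes was 1.18. The other 196 recomputed group values stayed within an allowance of 1.5-fold. Of 378 recomputed changes of single members, 362 did so too, 16 (8 members of low level) moved further with a smaller pseudocount and 0 reversed beyond the allowance. Within it, Psmb4, at -0.008, turned to 0.035 with the same summed FPKM and 0.006 with the same upper quartile. Both scalings gave 7 and 9 calls again, and pseudocounts of 0.1 and 0.01 each gave 8 higher and 11 lower. Without the 5 members that share exon bases with a coding gene above 0 in either library, an alternative also added after seeing the data, 6 were higher and 9 lower. Depth limits the members with under 20 fragments in a library most.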
